A study of Homo sapiens with 4 samples.

Results

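The EGR, FOS and JUN genes encode transcription factors of the immediate early response, and 10 of them were taken by name: EGR1, EGR2, EGR3, FOS, FOSB, FOSL1, FOSL2, JUN, JUNB and JUND. In the platform's probe annotation, 21 probe sets each named 1 of these genes, and they covered 9 of the 10 genes among the 19775 genes named by the array. EGR2 had no probe set under its name in that annotation and was not analysed here. All 9 covered genes had a mean log2 intensity of at least 5 (an intensity of 32) over the arrays, the level minimum that left 13794 genes for counts. The genes were chosen with the values of these same arrays known, so their differences are given as descriptions and none was tested.

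RNA came from 2 human melanoma lines, A375 and SK-MEL-28, which both carry an activating BRAF mutation. Each line was transfected with siRNA for ZIC5, a zinc-finger transcription factor, or with a negative control siRNA, and total RNA was taken 48 h later. The 4 groups, A375 with ZIC5 siRNA, A375 with control siRNA, SK-MEL-28 with ZIC5 siRNA and SK-MEL-28 with control siRNA, had 1 array each, so no difference between arrays has a replicate check, and the number of arrays limits the precision. The labels give neither the siRNA sequences nor whether more than 1 siRNA was used against ZIC5, and only 1 time was sampled.

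Immediate early genes are switched on within minutes of a growth factor or stress signal without new protein synthesis, and their mRNAs are short-lived. ERK phosphorylates ternary complex factors bound with SRF at CArG boxes, and this turns on EGR1, EGR3 and FOS. EGR proteins bind GC-rich DNA through zinc fingers, whereas FOS and JUN proteins pair through leucine zippers into AP-1, JUN proteins also pairing with one another. In BRAF-mutant melanoma the ERK pathway is constitutively active, and FOSL1 is a known stable readout of sustained ERK activity.

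The promoters of EGR1, FOS and JUND are shown because EGR1 and FOS had the largest siRNA differences of their families in A375 and JUND was among those that differed least there. They are the 250 bases before the RefSeq start, GRCh38.p14, 5′ to 3′, with motif matches in capitals.
EGR1, chr5:138465229-138465478, plus strand: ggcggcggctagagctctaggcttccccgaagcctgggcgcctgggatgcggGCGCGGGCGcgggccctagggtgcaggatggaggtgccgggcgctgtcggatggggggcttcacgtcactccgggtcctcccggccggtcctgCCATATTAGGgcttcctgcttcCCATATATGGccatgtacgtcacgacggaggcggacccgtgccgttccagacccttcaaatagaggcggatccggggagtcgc
FOS, chr14:75278578-75278827, plus strand: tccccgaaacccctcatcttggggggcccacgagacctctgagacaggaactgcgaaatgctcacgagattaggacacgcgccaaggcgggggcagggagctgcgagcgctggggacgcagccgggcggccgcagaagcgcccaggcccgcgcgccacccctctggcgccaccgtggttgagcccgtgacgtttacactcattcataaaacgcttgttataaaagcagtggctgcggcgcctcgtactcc
JUND, chr19:18281623-18281872, minus strand: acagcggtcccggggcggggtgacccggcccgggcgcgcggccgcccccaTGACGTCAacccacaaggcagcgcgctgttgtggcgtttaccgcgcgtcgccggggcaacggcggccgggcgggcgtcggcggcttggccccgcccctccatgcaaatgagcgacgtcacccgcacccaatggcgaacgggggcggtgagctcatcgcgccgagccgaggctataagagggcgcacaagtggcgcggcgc

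The motifs were searched on both strands: the CArG box, the cyclic AMP response element TGACGTCA, the AP-1 site TGANTCA and the EGR site GCGNGGGCG. RefSeq promoters were at hand for 7 of the 9 genes, and 2 of the 7 held a match. The EGR1 window held CArG boxes at 105 to 96 and at 83 to 74 bases before the start and an EGR site at 198 to 190 bases before it, and these did not overlap. JUND held the cyclic AMP response element at 200 to 193 bases before its start. For FOS, FOSB, FOSL2, JUN and JUNB these letters were not in the window. Bases farther upstream were not searched, so a gene without a match here may still hold the motif there. Over all 35116 promoters of that length in the table, 1.16% held a CArG box, 1.65% the cyclic AMP response element, 6.57% the AP-1 site and 8.41% the EGR site. The matches are descriptions of sequence and not measured binding sites.

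The arrays were alike in overall signal, with median intensities between 38.4 and 39.4. ZIC5 itself had 1 probe set, at an intensity of 14.1 in A375 with ZIC5 siRNA against 16.8 with control siRNA, and of 15.5 in SK-MEL-28 with ZIC5 siRNA against 21.4 with control siRNA. These values lie under the level minimum, so the knockdown cannot be read from the arrays. Most melanocyte markers separated the lines: MLANA was at 17.0 and 13.9 in A375 with ZIC5 and control siRNA, against 17273 and 18212 in SK-MEL-28, and the summed intensity of the 7 measured markers was 2317 and 1752 against 43147 and 46522. PMEL, SOX10, MITF and S100B were above 32 on every array, PMEL only just so in A375 (35.9 and 32.4). SOX10 was closer between the lines, at 1660 and 895 in A375 with ZIC5 and control siRNA against 1919 and 2135 in SK-MEL-28. Of the other cell types checked, 2 of 5 fibroblast markers, 3 or 4 of 4 keratinocyte markers and 1 of 3 leukocyte markers reached 32 on an array. Among leukocyte markers, CD3E was at 54.0 to 59.8 and PTPRC at 7.70 or less on all arrays. The fibroblast marker COL1A1 was at 152 to 190. The keratinocyte marker KRT14 was at 320 and 358 in A375 with ZIC5 and control siRNA, against 42.5 and 32.1 in SK-MEL-28. As these are bulk samples, fewer cells with a transcript and less of it per cell cannot be told apart.

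EGR1, a zinc-finger activator and the most strongly differing of the genes, was read by 3 probe sets. On the probe set with the highest mean, which represents each gene below, the intensity was 4152 in A375 with ZIC5 siRNA and 186 with control siRNA, and 1065 in SK-MEL-28 with ZIC5 siRNA and 778 with control siRNA. A375 with control siRNA was the lowest of the arrays and A375 with ZIC5 siRNA the highest. In A375 EGR1 was 22.3-fold higher with ZIC5 siRNA (log2 difference 4.48), the third highest difference of the 13794 genes. In SK-MEL-28 it was 1.37-fold higher (log2 0.45), and ranked 1050.

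The other EGR1 probe sets gave the same picture at lower signal. The second read 2266 in A375 with ZIC5 siRNA against 90.3 with control siRNA, and 508 in SK-MEL-28 with ZIC5 siRNA against 393 with control siRNA. The third read 832 against 42.6 in A375, and 161 against 112 in SK-MEL-28. Over the 3 probe sets the siRNA difference was between 4.29 and 4.65 in A375 and between 0.37 and 0.51 in SK-MEL-28, so the sets lay closer to one another than the lines did.

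EGR3, whose zinc fingers bind the same DNA sites as those of EGR1, stood high after ZIC5 siRNA in both lines. Its intensity was 646 in A375 with ZIC5 siRNA and 122 with control siRNA, and 860 in SK-MEL-28 with ZIC5 siRNA and 244 with control siRNA. Both ZIC5 siRNA arrays lay above both control arrays, which among the 9 genes also held for EGR1 and FOS. The difference was 2.41 on the log2 scale in A375 (5.30-fold) and 1.82 in SK-MEL-28 (3.52-fold), where it ranked 8 among all genes. EGR3 was the only one of the 9 genes at least 2-fold higher in both lines, and 0.312% of all genes were. Like FOS, FOSB, FOSL1 and JUNB, it was read by 1 probe set, so agreement between sets could not be checked.

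FOS, the founding partner of JUN in AP-1, had an intensity of 231 in A375 with ZIC5 siRNA and 42.4 with control siRNA, and of 172 in SK-MEL-28 with ZIC5 siRNA and 157 with control siRNA. The A375 control array stood apart at the low end, near the middle of all probe sets on that array (percentile 51.9), while the other arrays lay close together. FOS was thus 5.45-fold higher with ZIC5 siRNA in A375 (log2 2.45) and 1.10-fold higher in SK-MEL-28 (log2 0.14).

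The other FOS family genes were less than 2-fold apart in both lines. FOSB, a close relative of FOS, had 117 in A375 with ZIC5 siRNA and 83.9 with control siRNA, and 82.8 in SK-MEL-28 with ZIC5 siRNA and 65.6 with control siRNA, log2 differences of 0.47 and 0.34. FOSL1, which encodes FRA1 and lacks the strong activation domain of FOS, had 908 in A375 with ZIC5 siRNA and 1001 with control siRNA, and 629 in SK-MEL-28 with ZIC5 siRNA and 492 with control siRNA. Its differences of -0.14 in A375 cells and 0.35 in SK-MEL-28 cells had opposite signs. Every A375 value of FOSB and FOSL1 was above every SK-MEL-28 value.

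FOSL2, which encodes FRA2, had 5 probe sets whose signs disagreed in A375, as the signs of the JUND probe sets also did. The representative set read 219 in A375 with ZIC5 siRNA and 176 with control siRNA, and 125 in SK-MEL-28 with ZIC5 siRNA and 169 with control siRNA, differences of 0.32 and -0.44. Another set read 62.8 in A375 with ZIC5 siRNA and 92.3 with control siRNA, and 103 in SK-MEL-28 with ZIC5 siRNA and 182 with control siRNA, lower with ZIC5 siRNA in both lines. In A375 4 of the 5 sets were higher with ZIC5 siRNA, over a range of -0.56 to 0.49, and in SK-MEL-28 all 5 were lower, from -0.82 to -0.04. Taking the median level over the 5 sets on each array, which fell on different sets on different arrays, the A375 difference was -0.33, so the direction in A375 depends on how probe sets are combined.

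JUN, the AP-1 subunit that can pair with itself, differed in opposite directions in the lines. Its intensity was 1137 in A375 with ZIC5 siRNA and 610 with control siRNA, and 570 in SK-MEL-28 with ZIC5 siRNA and 788 with control siRNA. All 4 JUN probe sets were higher with ZIC5 siRNA in A375, by 0.63 to 0.94, and all 4 were lower in SK-MEL-28, with differences of -0.66 to -0.21. The representative differences were 0.90 and -0.47, neither of them 2-fold. That probe set is of a type that Affymetrix marks as liable to match other transcripts, and 1 of the other 3 lay under the level minimum.

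JUNB, a JUN relative with weaker activating capacity, had 435 in A375 with ZIC5 siRNA and 252 with control siRNA, against 109 on both SK-MEL-28 arrays. It was 1.72-fold higher with ZIC5 siRNA in A375 (log2 0.78), and its difference in SK-MEL-28 was 0.00. JUND, the JUN family gene known for steady expression, had 1211 in A375 with ZIC5 siRNA and 1408 with control siRNA, and 797 in SK-MEL-28 with ZIC5 siRNA and 624 with control siRNA. The JUND difference was -0.22 in A375, where 3 of 4 probe sets were lower, and 0.35 in SK-MEL-28, where all 4 were higher.

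**Figure D1:**
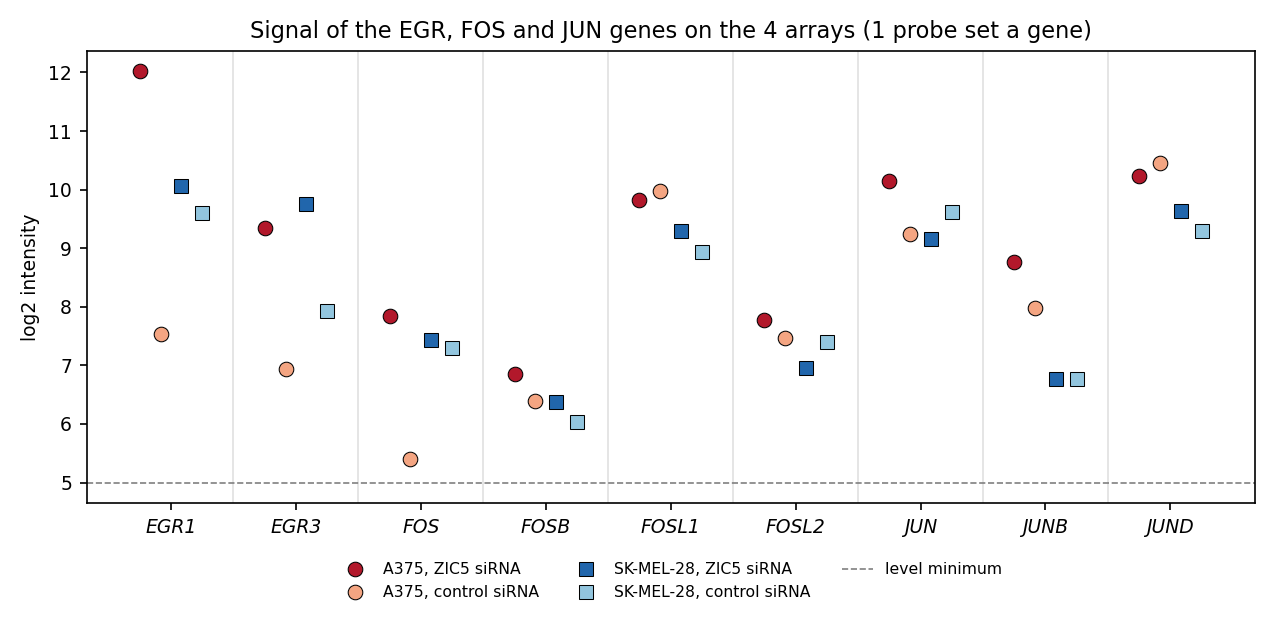
Log2 intensity (vertical axis) of the 9 genes on the 4 arrays, 1 point per array and 1 probe set per gene, with the level minimum of 5 dashed. EGR1, EGR3 and FOS have their lowest point in A375 with control siRNA, and their points are not compared between genes, since probe sets differ in brightness.

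Counted over the genes, 3 of 9 were at least 2-fold higher with ZIC5 siRNA in A375 (EGR1, EGR3 and FOS), where 3.89% of all genes were, and 0 of 9 were 2-fold lower, where 5.05% were. In SK-MEL-28, 1 of 9 was at least 2-fold higher (EGR3), where 0.776% of all genes were, and 0 of 9 were 2-fold lower, where 2.12% were. The median difference of the 9 genes was 0.78 in A375 cells and 0.34 in SK-MEL-28 cells, beside -0.01 and 0.00 over all genes. In each line 7 of the 9 were higher, beside 48.5% and 50.2% of all genes, but JUNB in SK-MEL-28 was higher by only 0.001 and was lower, by -0.005 and -0.017, with quantile normalization and cyclic loess. Because the genes were chosen on these differences, nothing is read from these counts.

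As a scale for these sizes, the SD of the siRNA difference over all genes was 0.60 in A375 cells and 0.39 in SK-MEL-28 cells. The median SD between probe sets of one gene was 0.25 in A375 cells and 0.15 in SK-MEL-28 cells, which is no replicate error. The FOSL1 and JUND differences in A375 were within the first of these and the FOS and JUNB differences in SK-MEL-28 within the second.

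**Figure D2:**
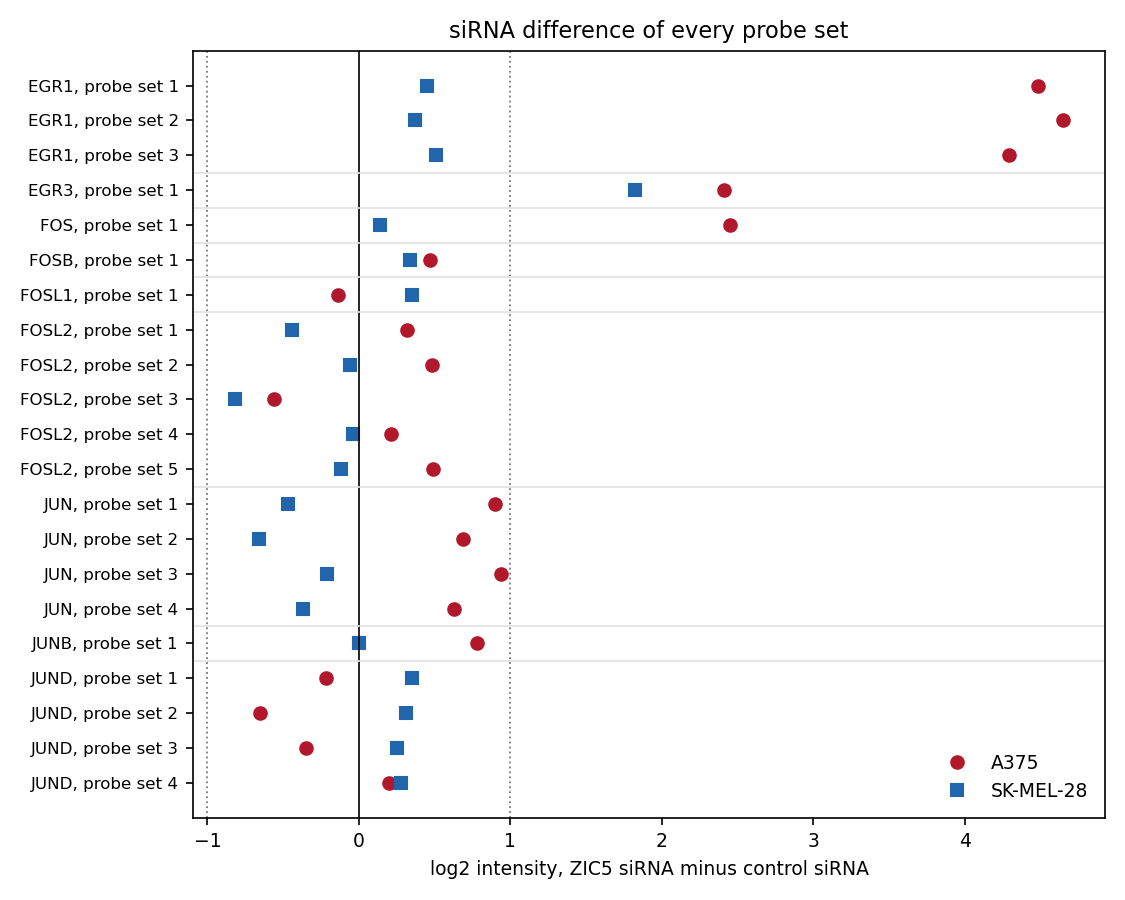
The siRNA difference (horizontal axis, log2 intensity with ZIC5 siRNA minus control siRNA) of each of the 21 probe sets, by gene and in order of mean signal, with circles for A375 and squares for SK-MEL-28 and dotted lines at 2-fold. The 3 EGR1 probe sets lie between 4.29 and 4.65 in A375 and between 0.37 and 0.51 in SK-MEL-28, and the 4 JUN probe sets lie on opposite sides of 0 in the lines.

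The A375 siRNA difference exceeded that of SK-MEL-28 by 4.03 log2 units for EGR1, by 2.31 for FOS and by 1.37 for JUN, and 3.58% of all genes exceeded it by at least 1. For EGR3 the lines were 0.59 apart and for FOSB 0.14. FOSL1 and JUND went the other way, at -0.50 and -0.57. With 1 array in each group these differences between lines cannot be tested. Among the 9 genes FOSL1, FOSL2, JUN and JUND had opposite signs in the lines, and 35.6% of all genes did.

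The lines were also set against each other under each siRNA. With ZIC5 siRNA, EGR1 had 4152 in A375 cells and 1065 in SK-MEL-28 cells, a line difference of 1.96 in favour of A375. With control siRNA it had 186 in A375 cells and 778 in SK-MEL-28 cells, a line difference of -2.06. The order of the lines for EGR1 was thus reversed between the transfections, on all 3 probe sets. FOS shared this pattern at smaller size, with line differences of 0.42 with ZIC5 siRNA and -1.89 with control siRNA, and so did JUN, with 0.997 and -0.37, on all 4 of its probe sets.

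EGR3 was lower in A375 under both siRNAs, with line differences of -0.41 with ZIC5 siRNA and -1.0 with control siRNA. JUNB was higher in A375 under both, by 1.99 and 1.21, and JUND by 0.60 and 1.17, FOSL1 by 0.53 and 1.02 and FOSB by 0.49 and 0.36. For JUND the 4 probe sets ranged from -0.03 to 0.60 with ZIC5 siRNA and from 0.05 to 1.17 with control siRNA. For FOSL2 the representative set gave 0.81 and 0.05, but 3 of 5 sets were lower in A375 with ZIC5 siRNA and 4 of 5 with control siRNA.

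With ZIC5 siRNA, 2 of the 9 genes (EGR1 and JUNB) were at least 2-fold higher in A375, where 12.0% of all genes were, and JUN at 0.997 was just under that size. With control siRNA, 3 of 9 (FOSL1, JUNB and JUND) were at least 2-fold higher in A375, where 11.0% of all genes were, and 3 of 9 (EGR1, EGR3 and FOS) at least 2-fold lower, where 11.2% were. FOSL1 was under that size with cyclic loess (0.97), and JUND with the median over probe sets (0.82) or the second highest set (0.93). FOSL2 was over 2-fold lower in A375 with the second highest set (-1.37), the only 1 of its 5 sets past that size. The median level gave -1.10, but it fell on different FOSL2 sets in the lines, so that value compares unlike sets. JUN with ZIC5 siRNA reached that size with quantile normalization (1.01). Nothing is read from these shares, since the genes were chosen with the line differences in view.

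**Figure D3:**
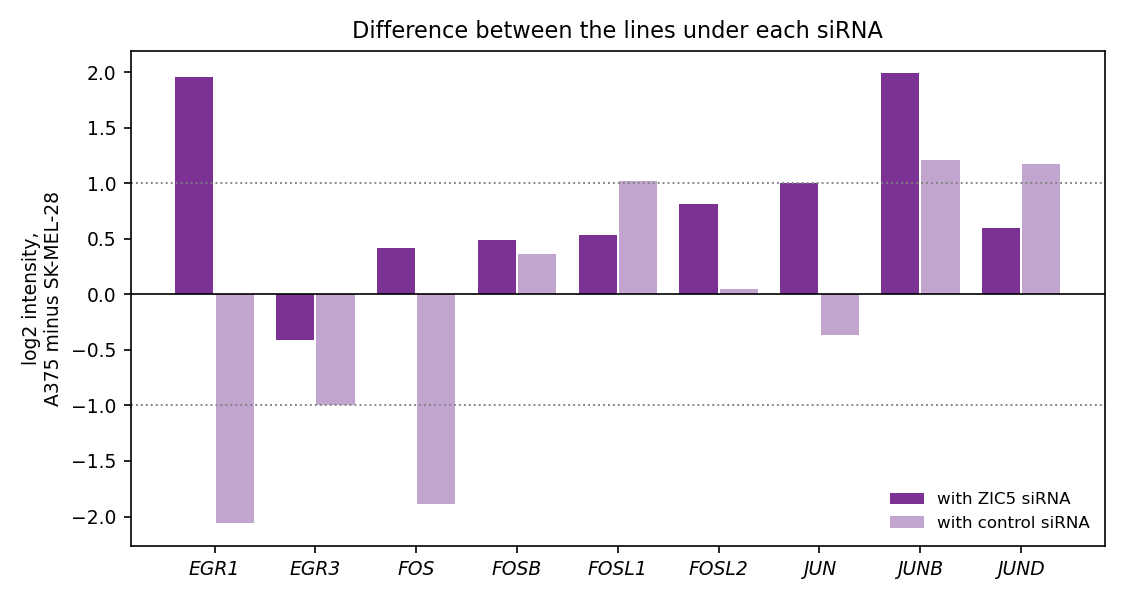
Line difference (vertical axis, log2 intensity in A375 minus SK-MEL-28) of the 9 genes, with dark bars for ZIC5 siRNA and light bars for control siRNA and dotted lines at 2-fold. EGR1 stands at 1.96 and -2.06, FOS at 0.42 and -1.89, and JUN at 0.997 and -0.37.

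The genes with the most similar profiles were found by the distance between log2 values over the 4 arrays, each gene centred on its own mean. Nearest to EGR1 were CTH, a cysteine-forming enzyme, at a distance of 1.0, CAB39L at 1.02 and the collagenase MMP1 at 1.25. Nearest to EGR3 were ATXN1 (0.50), the matrix proteoglycan VCAN (0.63) and MLC1 (0.82). For FOSL1 the distances were 0.07 to GNPDA2, 0.07 to LSM12 and 0.09 to ACOX3, and JUND lay at 0.12. For JUN they were 0.10 to IL1RAPL1, 0.16 to the histone gene H2BC12 and 0.18 to CILK1. With 4 arrays many genes share a profile, and none of these distances has a test.

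Genes that act around the EGR, FOS and JUN proteins were then read from 9 lists that held 105 genes, of which 94 were at the level minimum. Most of the others had no probe set naming them alone and were not measured. Measured were 11 of 16 MAPK kinases, 9 of 11 EGR1 targets, 12 of 13 AP-1 partners and 21 of 22 other immediate early genes. All 19 AP-1 targets were measured, and 17 of them were at the level minimum. The siRNA effect over both lines was fitted with limma over all 13794 genes with the line as a block, and 0.0% of genes passed at a Benjamini-Hochberg adjusted p under 0.05. Of the 94 genes 0 passed, with a lowest limma adjusted p of 0.268, and 23 (24.5%) had an unadjusted p under 0.05, 19 higher and 4 lower (AXL, CCN1, KHSRP and MRTFB, named after their values were seen), beside 13.2% of all genes. These lists were drawn up with earlier results of these data known. The error of this fit comes from the disagreement of the siRNA difference between the lines, not from replicates. A gene that differed in 1 line only thus had a large SE, such as MMP10 (SE 2.03), and could hardly pass.

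Among genes that feed signal to the early promoters, 1 was 2-fold apart in transcript level. Of 6 genes for SRF, its ternary complex factors and its MRTF coactivators, this was MRTFB: it had 138 in A375 with ZIC5 siRNA and 307 with control siRNA, and 185 in SK-MEL-28 with ZIC5 siRNA and 289 with control siRNA. SRF itself differed by -0.15 and -0.07. The median of these 6 was -0.12 in each line. Of 11 MAPK pathway kinases, 0 were 2-fold apart in either line, and their medians were -0.15 in A375 cells and -0.02 in SK-MEL-28 cells.

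Of 13 genes known as outputs of ERK signalling, 0 passed the fit. Of these ERK output genes, 9 were higher with ZIC5 siRNA in A375, 4 of them at least 2-fold, and 10 were higher in SK-MEL-28, 1 of them at least 2-fold, with medians of 0.75 and 0.51. Of all genes, 48.5% were higher in A375 cells, 3.89% by 2-fold, and 50.2% were higher in SK-MEL-28 cells, 0.776% by 2-fold. The ERK phosphatase DUSP6 had 5674 in A375 with ZIC5 siRNA and 2335 with control siRNA, and 2434 in SK-MEL-28 with ZIC5 siRNA and 1351 with control siRNA, a mean log2 difference of 1.06 over the lines (SE 0.16, limma adjusted p 0.268). SPRY4, a feedback inhibitor of receptor signalling, differed by 1.35 and 1.07, PHLDA1 by 1.57 and 0.89, and the RAS pathway inhibitor SPRED1 by 1.01 and 0.61. The MAPK-regulated factor ETV1 had an intensity of 387 in SK-MEL-28 with ZIC5 siRNA against 863 with control siRNA, and it was named after its values were seen.

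Among 21 other immediate early genes, 17 were higher with ZIC5 siRNA in A375, 6 at least 2-fold, and 1 was at least 2-fold lower, with a median of 0.64, where 48.5% of all genes were higher, 3.89% 2-fold higher and 5.05% 2-fold lower. In SK-MEL-28 12 of the 21 were higher, 0 at least 2-fold, and 2 (CCN1 and CCN2) were at least 2-fold lower, with a median of 0.08, where 50.2%, 0.776% and 2.12% of all genes were. IER2 differed by 1.08 in A375 cells and 0.57 in SK-MEL-28 cells, and the stress gene GADD45B by 1.07 and 0.61. The orphan nuclear receptor NR4A3 had 50.7 in A375 with ZIC5 siRNA and 19.3 with control siRNA, and 205 in SK-MEL-28 with ZIC5 siRNA and 287 with control siRNA. Its A375 difference of 1.39 was 0.66 with intensities under 32 set to 32. The matricellular gene CCN1, an SRF and YAP target, ran opposite to EGR1, with 1228 in A375 with ZIC5 siRNA and 2859 with control siRNA, and 78.2 in SK-MEL-28 with ZIC5 siRNA and 920 with control siRNA.

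Most partner genes were less than 2-fold apart. ATF3, a stress-induced bZIP protein that pairs with JUN, was the exception among 12 AP-1 partners: it had 591 in A375 with ZIC5 siRNA and 104 with control siRNA, and 68.1 in SK-MEL-28 with ZIC5 siRNA and 43.7 with control siRNA, differences of 2.50 and 0.64, and no other partner was 2-fold apart. The median of these partners was 0.32 in A375 cells and 0.11 in SK-MEL-28 cells. EGR4, another EGR family gene, had 80.3 in A375 with ZIC5 siRNA and 34.7 with control siRNA, against 43.2 and 42.2 in SK-MEL-28. All but the first of these values were close to the array medians of 38.4 to 39.4. NAB1 and NAB2, corepressors that bind EGR proteins, differed by 0.14 and 0.35 in A375 and by -0.15 and -0.03 in SK-MEL-28. Among genes for proteins that act on AU-rich mRNAs such as FOS, the decay factors ZFP36L1 and ZFP36 differed by 1.14 and 1.04 in A375 and by 0.77 and 0.09 in SK-MEL-28, and the median of the 6 measured was -0.10 in A375 cells and 0.11 in SK-MEL-28 cells.

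Known AP-1 targets spread widely in A375. Of 17 at the level minimum, 6 were higher and 3 (IL11, AXL and MMP9) lower by 2-fold or more in A375, with a median of 0.43, beside 3.89% and 5.05% of all genes. The difference of the stromelysin MMP3, 1 of the 6, was 1.44, or 0.80 with intensities under 32 set to 32. In SK-MEL-28 HMOX1 was higher and CXCL8 lower by that size, with a median of -0.05, beside 0.776% and 2.12% of all genes. MMP3, AXL, MMP9, HMOX1 and CCN2 were named after their values were seen. MMP1 had 4284 in A375 with ZIC5 siRNA and 103 with control siRNA, and 324 in SK-MEL-28 with ZIC5 siRNA and 451 with control siRNA. MMP10, a stromelysin of the same protease family, differed by 7.67 in A375, or 5.92 with intensities under 32 set to 32. The chemokine CXCL8 had 818 in A375 with ZIC5 siRNA and 331 with control siRNA, and 351 in SK-MEL-28 with ZIC5 siRNA and 2818 with control siRNA. The cytokine IL11, at a difference of -3.59 in A375, was under 32 on both SK-MEL-28 arrays. Of 9 known EGR1 targets 0 were 2-fold apart in either line, 3 (VEGFA, F3 and NAB2) were higher in A375 cells and 1 (VEGFA) in SK-MEL-28 cells, all named after their values were seen, and the medians of the 9 targets were -0.12 and -0.17.

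**Figure D4:**
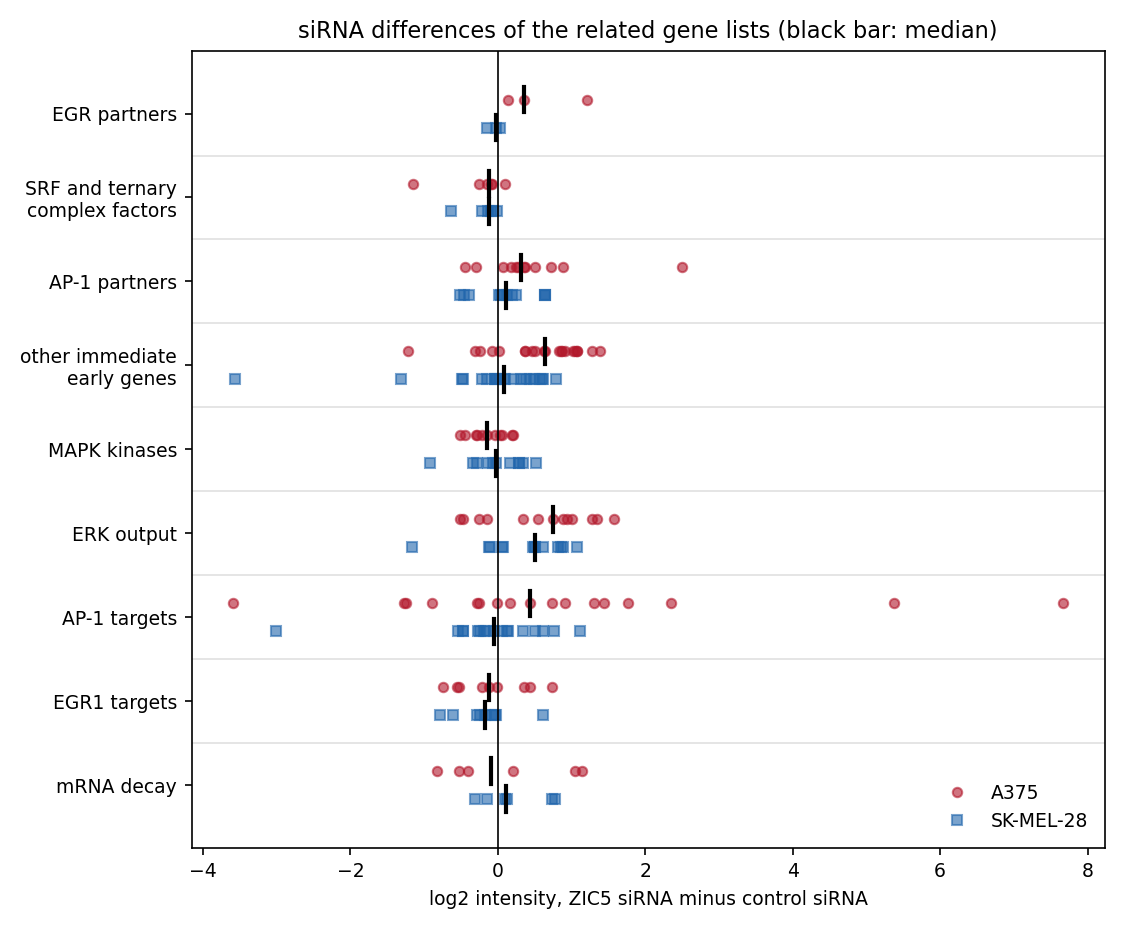
The siRNA difference (horizontal axis, log2 intensity with ZIC5 siRNA minus control siRNA) of each gene of the 9 related lists, 1 row of circles for A375 and 1 of squares for SK-MEL-28 per list, with black bars at the medians. The ERK output medians are 0.75 and 0.51, and the EGR1 target medians are -0.12 and -0.17.

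The line effect over both transfections, from the same limma fit, passed at an adjusted p under 0.05 in 27.7% of all genes and in 46 of the 94 (48.9%), 28 higher and 18 lower in A375. Nothing is read from the gap between these shares, since the lists were drawn up with earlier results known and were not matched to all genes in signal. Of the 21 other immediate early genes 14 passed, 10 higher and 4 lower in A375, with KLF4 higher in A375 (line difference 1.78, SE 0.20, limma adjusted p 0.0131) and MYC lower (-3.09, SE 0.19, adjusted p 0.00454), both added after their values were seen. The 46 genes include the MAPK kinases MAP2K1 (0.79, SE 0.15, limma adjusted p 0.0347) and MAP2K2 (-1.14, SE 0.17, adjusted p 0.02), also chosen after their values were seen.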

How the data were processed

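Each of the 4 samples, 1 per line and transfection, was labelled from 100 ng of total RNA and read on 1 array, per the labels. The intensity values are the authors' own, 1 per probe set, and the submitters' processing notes name RMA and Affymetrix Expression Console (their versions are not given in the sources). RMA makes arrays alike in distribution, so a shift of all genes together would not show. The deposited intensity runs from 2.8 to 22531 on a linear scale, and log2 was taken here.

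The array table holds 54613 probe sets: 41091 with 1 gene name, 1801 with several, which were left out, and 11721 unnamed here. Gene IDs of 41037 were found in RefSeq (GRCh38.p14), with 0 symbols updated and 54 not found. The probe set with the highest mean stands for a gene. With 1 array per group no test was possible within a line, and a 2-fold size rule was used on genes at a mean log2 of 5 or more. Effects over both lines or both siRNAs came from an additive limma fit (3.58.1, R 4.3.3, eBayes with trend, 1 residual degree of freedom, Benjamini-Hochberg), tested on simulated data. The simulated siRNA shifts were the same in both lines, so that trial does not cover genes that differed in 1 line only. Nothing says that samples came from separate cultures, so the p-values of the fit reflect these arrays alone. The 1 residual degree of freedom is the difference of the siRNA effect between the lines. The p-values of both effects are therefore not measured against replicate error.

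The genes and lists were chosen with earlier results of these data known. Named genes are the members, up to 4 per list that were 2-fold apart in either line, by mean absolute difference, and the 3 nearest profiles of EGR1, EGR3, FOS, FOSL1 and JUN, those of FOS not being reported here. SRF, NAB1, NAB2, the cell type markers and genes said to be named after their values were seen fall outside this rule. Alternatives were other level minimums, a floor at 32, quantile and cyclic loess normalization, other probe set choices, a 1.5-fold size rule and eBayes without trend.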

Additional observations from a re-analysis of the deposited data

Results flagged for a closer look

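A difference between the lines was untested for each gene below, because each group held 1 array, and each is given because the A375 array pair and the SK-MEL-28 array pair had differences of opposite sign. Of all genes, 35.6% had opposite signs in the lines, so such a sign alone is common. On the log2 scale, ZIC5 siRNA minus control siRNA, JUN differed by 0.90 in A375 cells and -0.47 in SK-MEL-28 cells, FOSL2 by 0.32 and -0.44, FOSL1 by -0.14 and 0.35, and JUND by -0.22 and 0.35. The FOSL1 and JUND differences in A375 were within the median SD between probe sets there (0.25), and 1 of the 4 JUND sets was higher in A375. Among the related genes, CXCL8 differed by 1.31 in A375 cells and -3.01 in SK-MEL-28 cells, MMP1 by 5.38 and -0.47, MMP10 by 7.67 and -0.27, and NR4A3 by 1.39 and -0.49. With intensities under 32 set to 32, MMP10 differed by 5.92 and 0.00, so its sign in SK-MEL-28 cannot be read. With the median level over probe sets FOSL2 differed by -0.33 in A375, the same sign as in SK-MEL-28. That median fell on different sets on the A375 arrays, and 4 of the 5 FOSL2 sets were higher in A375.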

How the results depend on the processing

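Quantile normalization and cyclic loess gave 72 differences of the 9 genes, of which 70 kept their sign, and the other 2 were JUNB in SK-MEL-28 (0.001 as reported, -0.005 and -0.017). Another choice of probe set could change only the 4 genes with several sets. It gave 32 differences, of which 26 kept their sign and 16 moved by more than the spread between probe sets. The 6 that turned were, for FOSL2, -0.33 in A375 (median level over probe sets), -0.72 and -0.83 between the lines with ZIC5 siRNA and -1.10 and -1.37 with control siRNA (median, then second highest probe set), and for JUND -0.03 between the lines with ZIC5 siRNA (second highest). The FOSL2 medians behind -0.33 and -1.10 fell on different probe sets on the arrays compared, so these values set unlike sets against each other. FOS and FOSB fell under a level minimum of 7, which left 2 of 7 genes 2-fold higher in A375. A size rule of 1.5-fold gave 5 of the 9 genes higher in A375 and 5 higher in A375 than in SK-MEL-28 with ZIC5 siRNA. The same rule gave 3457 of all genes in A375, 1464 in SK-MEL-28, 5834 between the lines with ZIC5 siRNA and 5589 with control siRNA, where the 2-fold rule gave 1234, 399, 3277 and 3061. Fewer genes were tested with a minimum of 7, which left 803 in A375, 2179 between the lines with ZIC5 siRNA and 2000 with control siRNA, and the median over probe sets left 234 in SK-MEL-28. The limma siRNA effect called 0 genes under all alternatives run, with 1471 to 2095 at an unadjusted p under 0.05, and the line effect called 2926 to 4217. The line was a block in the limma fit, and no paired analysis was possible within a line because each group holds 1 array. The background of the arrays limits what can be read of genes under an intensity of 32, ZIC5 among them.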
